A study of Homo sapiens with 10 samples.

Results

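The genes described here are 30 members of the p53 pathway, taken by symbol from a table of 63187 genes. All 30 were found, each by 1 Ensembl identifier, and 29 had enough reads to be tested. The exception, SPATA18, a mitochondrial quality control gene, had 2 reads in 1 unheated library and 0 reads in the other 5. RNA was sequenced from U2OS, a human osteosarcoma cell line, in 3 groups of 2 libraries. The column names call it mRNA and the titles Total RNA-seq. The first group was unheated and received the control knockdown reagent (siCtrl in the column names, shCtrl in the titles). The second received the same control reagent and was heat shocked. The third was heat shocked after knockdown of YTHDC1 (siDC1 or shYTHDC1), a nuclear protein that reads N6-methyladenosine (m6A) in RNA. The libraries analysed hold no unheated knockdown group, so the response to heat inside knockdown cells could not be measured. No source used here gives the temperature or length of the heating, or says whether the libraries come from separate cultures.

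p53 is a transcription factor that is held at a low level in unstressed cells by the ubiquitin ligase MDM2 and kept inactive by its relative MDM4. DNA damage and other stresses release it, and it then raises genes that arrest the cell cycle, repair DNA, alter metabolism or promote cell death, together with MDM2 itself, which closes a negative feedback loop.

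Total counts ran from 13252370 to 15500743 per library. YTHDC1 stood at 267 and 257 CPM (read counts scaled to a common library size) in heat-shocked controls and at 121 and 118 CPM in the knockdown, which left 45.4% of the control level (log2 fold change -1.14 ± 0.05 SE, edgeR adjusted p = 2.65e-15). All 9 bone and mesenchymal markers examined were detected, with a summed level of 4167 to 4657 CPM per library. COL1A1, VIM and SPARC made up most of this sum, and COL1A2 had only 1 to 9 reads in each control library. The 7 epithelial markers summed to 54.3 to 57.5 CPM in unheated controls, 71.0 to 79.3 CPM in heat-shocked controls and 92.0 to 98.0 CPM in the knockdown. CLDN4 made up most of this sum, at means of 43.1, 64.4 and 57.6 CPM in these groups. With heat CLDN4 was called higher and KRT5 lower, and EPCAM, CDH1 and KRT14 were not called. The 8 blood cell markers summed to between 5.34 and 23.5 CPM, and HBB and CD3E had no read in any library.

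RefSeq promoters (GRCh38.p14, 250 bases before to 50 bases after the start site) were matched for 24 of the 30 members; RRM2B, GADD45A, TP53INP1, TNFRSF10B, PHLDA3 and FBXO22 were not matched. The p53 response element was searched as 2 abutting consensus decamers, each with its C and G core intact, allowing 3 mismatches over 20 bases; the pattern reads the same on both strands. It matched in 3 of the 24 member promoters, those of AEN, FDXR and GDF15, and in 1.055% of all 27303 promoters. The capitals below mark the matched 20 bases, and the stretches of all 3 matching members are shown. In the knockdown FDXR and GDF15 were called higher and AEN lower. A link between the element and these changes was not tested. For AEN the stretch is chr15:88621190-88621339 on the plus strand, with the element 34 to 15 bases before the start site used here and 2 mismatches. That start lies inside the annotated gene, which begins at base 88604683. For FDXR it is chr17:74872995-74873144 on the minus strand, with the element 21 to 2 bases before the start and 3 mismatches. For GDF15 it is chr19:18386181-18386207 on the plus strand, with the element 29 to 48 bases into the transcript and 3 mismatches.
AEN: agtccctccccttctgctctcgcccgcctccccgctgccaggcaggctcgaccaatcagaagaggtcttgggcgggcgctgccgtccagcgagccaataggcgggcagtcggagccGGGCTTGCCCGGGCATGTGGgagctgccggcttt
FDXR: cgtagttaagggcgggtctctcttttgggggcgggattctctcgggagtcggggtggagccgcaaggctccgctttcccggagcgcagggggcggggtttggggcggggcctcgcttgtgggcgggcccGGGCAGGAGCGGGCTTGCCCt
GDF15: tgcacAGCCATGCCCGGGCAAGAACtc

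A heat shock element of 3 alternating GAA and TTC units, each separated by NN, on either strand, was in 0 of the 24 member promoters and in 0.487% of all promoters. The GC box GGGCGG, on either strand, was in 22 of the 24 and in 44.6% of all promoters. The median GC content was 71.0% in the member promoters and 58.3% over all promoters. A match describes letters in this window only, and several p53 sites of these genes are known to lie farther away or in introns.

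Per kilobase of annotated exon, the members differed widely in unheated cells. CDKN1A had the highest level, at a mean of 147 CPM per kilobase, followed by GADD45A at 58.3, RRM2B at 48.9, CCNG1 at 45.9 and TRIAP1 at 39.9. The lowest of the tested members were FAS at 1.23, ACER2, and TIGAR at 2.04. The deposited length of FAS, 29313 bases, counts all annotated exons, so its value on this scale is a low estimate.

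Heat shock in control cells was followed by lower levels of most members. Of 29 tested, 22 were called lower and 2 higher at an edgeR adjusted p under 0.05, while over all 17290 genes tested 23.3% were called lower and 20.6% higher. Among the 11569 genes of at least 5 CPM on average, 29.2% were called lower and 24% higher. The median log2 fold change was -0.36 for the members and -0.03 for all genes. At a change of at least 2-fold, 6 members were lower and 0 higher, against 3.51% lower and 5.82% higher over all genes. The 2 members that rose were MDM4 and TIGAR, and the 5 that were not called were ZMAT3, CCNG1, PERP, SUSD6 and ACER2. In bulk RNA, fewer cells with a message and less of it per cell cannot be told apart. The plot of every library relative to the unheated mean shows these shifts.

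**Figure D1:**
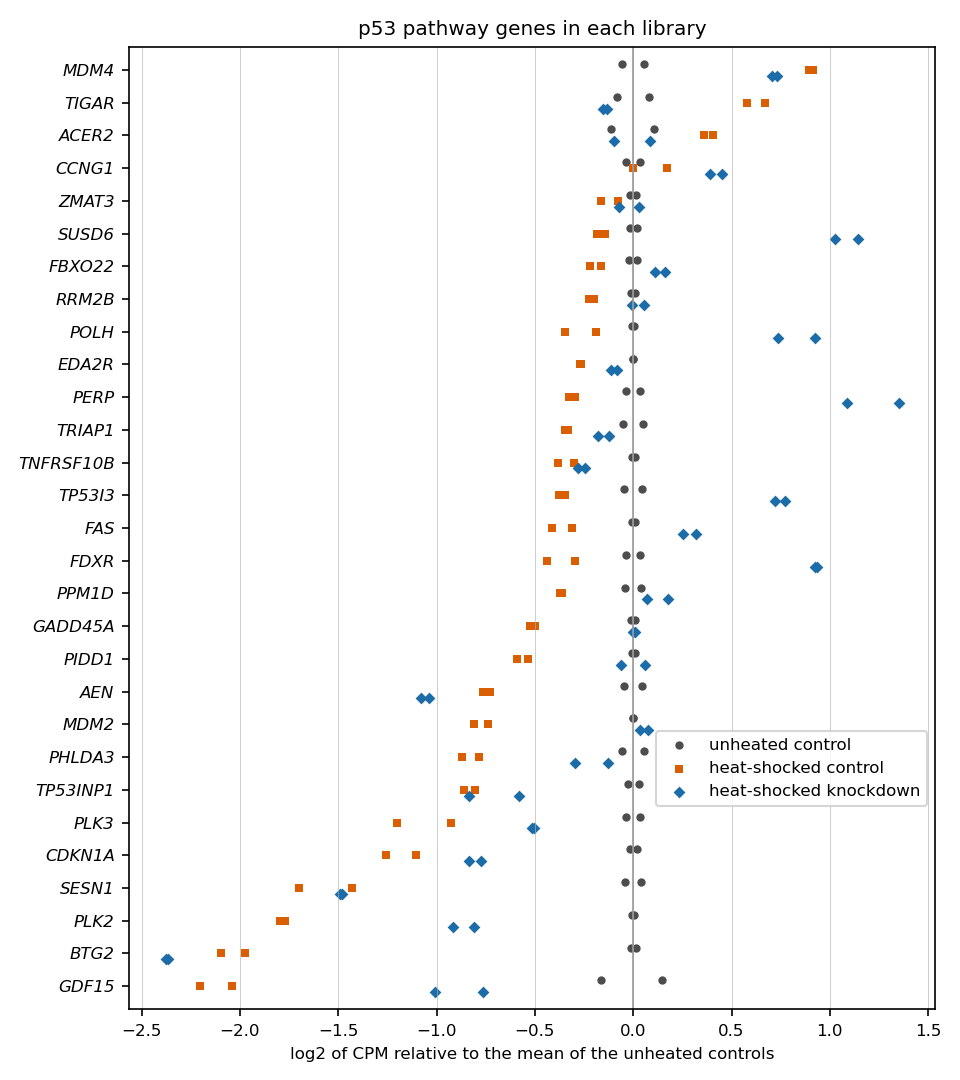
Each row is 1 tested member, ordered by its response to heat; the x axis is the log2 of its CPM relative to the mean of the unheated controls, and each symbol is 1 library (circles unheated control, squares heat-shocked control, diamonds heat-shocked knockdown). The squares reach beyond -2 for GDF15 and BTG2 and lie to the right of 0 for MDM4 and TIGAR, while the knockdown diamonds spread from below -2 for BTG2 to above 1 for PERP and SUSD6.

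All 5 genes of cell cycle arrest were called lower with heat, against 23.3% of all genes tested. CDKN1A, which encodes the p21 inhibitor of cyclin-dependent kinases, had 447 and 436 CPM without heat and 185 and 205 CPM after heat. These libraries do not overlap, and 44.2% of the unheated level was left (log2 fold change -1.18 ± 0.05, adjusted p = 1.29e-15). BTG2, an antiproliferative gene whose protein recruits messenger RNA deadenylases, went from 59.6 and 58.5 CPM to 13.8 and 15.0 CPM, a 4.09-fold fall (adjusted p = 6.95e-16). PLK2, a polo-like kinase induced by stress, went from 142 and 141 CPM to 41.5 and 40.8 CPM, a 3.44-fold fall (adjusted p = 6.82e-18). Its relative PLK3 went from 53.3 and 56.0 CPM to 23.8 and 28.8 CPM (2.07-fold lower, adjusted p = 1.09e-10). GADD45A, a stress-induced growth arrest protein, moved less, from 113 and 111 CPM to 79.4 and 78.0 CPM (log2 fold change -0.51 ± 0.05, adjusted p = 1.53e-08).

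The genes that feed back on p53 were divided. MDM2 went from 193 CPM in both unheated libraries to 116 and 110 CPM, so that 58.5% was left (log2 fold change -0.77 ± 0.05, adjusted p = 2.50e-12). MDM4, whose protein binds p53 and blocks its activity without degrading it, went the other way, from 42.3 and 45.7 CPM to 81.8 and 83.0 CPM (log2 fold change 0.90 ± 0.06, adjusted p = 1.11e-11). The unheated and heated libraries did not overlap for either inhibitor. PPM1D, the phosphatase WIP1 that removes activating phosphates from p53 and its kinases, stood at 89.4 and 94.8 CPM before and at 71.6 and 71.2 CPM after heat (log2 fold change -0.37 ± 0.06, adjusted p = 1.12e-05). TP53INP1, which promotes p53 phosphorylation, fell by 0.83 on the log2 scale, and FBXO22, an F-box ubiquitin ligase subunit that acts on p53, by 0.19. CCNG1, cyclin G1, was at 138 and 146 CPM before and 160 and 142 CPM after, with overlapping libraries (adjusted p = 0.206). CCNG1 was called higher without heat-shocked control replicate 2 (log2 fold change 0.17, adjusted p = 0.0304) and in the fit of only these 2 groups (0.12, adjusted p = 0.044).

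**Figure D2:**
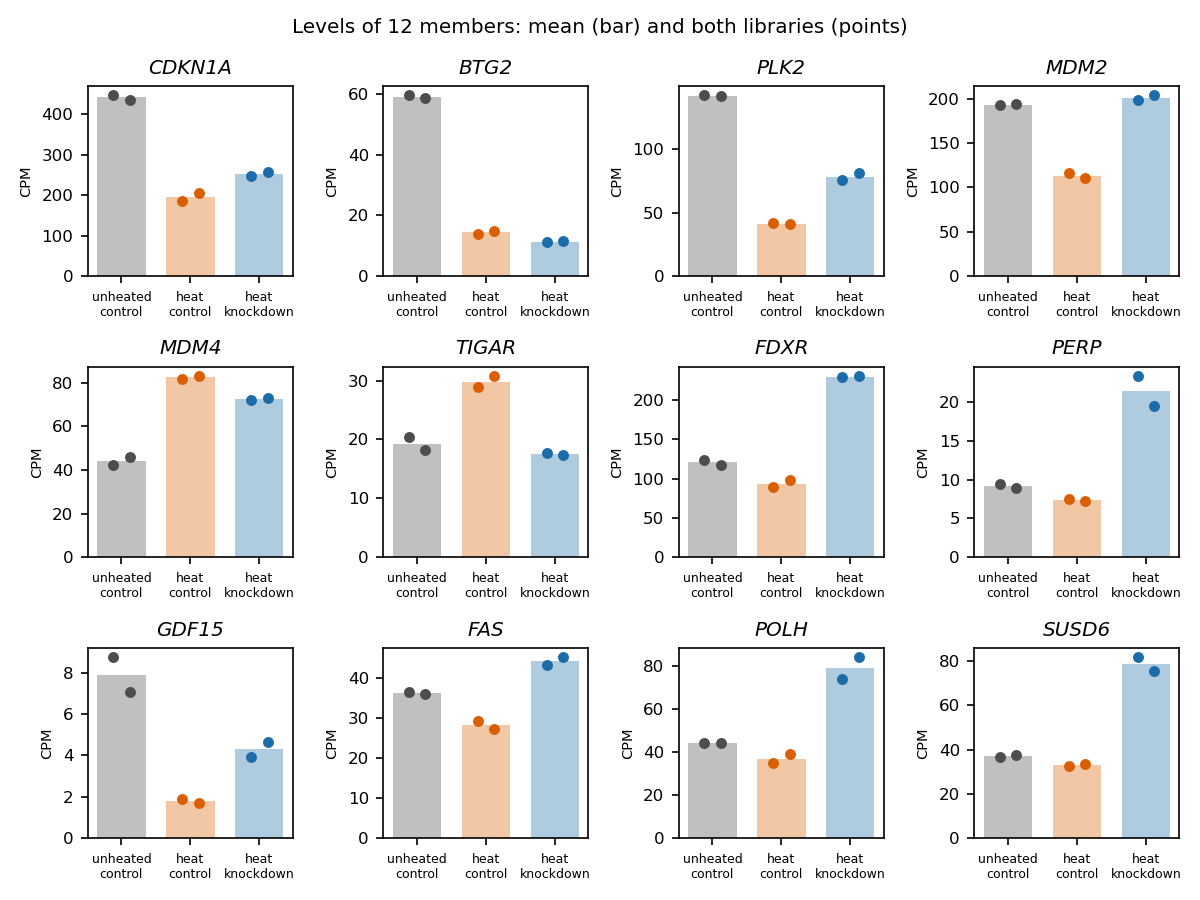
Each panel gives 1 member in CPM on a linear axis from 0; bars are the mean of 2 libraries and points the libraries themselves, for unheated controls, heat-shocked controls and heat-shocked knockdown cells. CDKN1A, BTG2 and PLK2 stay below their unheated level in the knockdown, MDM2 is back at it, and FDXR, PERP, POLH and SUSD6 exceed it.

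Among genes of cell death, 6 of 8 were called lower with heat, against 23.3% of all genes tested. FAS, the death receptor for FAS ligand, stood at 36.3 and 36.0 CPM before and at 29.1 and 27.1 CPM after heat (log2 fold change -0.36 ± 0.08, adjusted p = 4.22e-04). TNFRSF10B, the TRAIL receptor DR5, stood at 120 and 122 CPM before and at 98.3 and 93.0 CPM after (log2 fold change -0.34 ± 0.05, adjusted p = 7.62e-06). Both receptors fell modestly, with no overlap between the groups. PHLDA3, which competes with AKT for membrane lipids, fell by 0.83 on the log2 scale, AEN, an apoptosis-enhancing nuclease, by 0.75, PIDD1, the scaffold that activates caspase-2, by 0.56, and EDA2R, a TNF receptor family member, by 0.27. PERP, a membrane protein of desmosomes and apoptosis, was at 9.38 and 8.91 CPM before and 7.45 and 7.30 CPM after (adjusted p = 0.0869), and SUSD6 at 36.5 and 37.4 CPM before and 32.5 and 33.4 CPM after (adjusted p = 0.0758). PERP and SUSD6 were called lower with library size alone as the scaling (adjusted p = 0.0337 and 0.0113), and SUSD6 also without knockdown replicate 1 (0.0487) or replicate 2 (0.0491).

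GDF15, a secreted stress cytokine, had the largest fall of the 29. Its 2 unheated libraries had 8.75 and 7.05 CPM and its heated ones 1.92 and 1.72 CPM, a 4.34-fold fall (log2 fold change -2.12 ± 0.21, adjusted p = 1.64e-08). These levels rest on 139 and 110 reads before and 25 and 24 after, which is why its SE was the widest among the members. TRIAP1, a small mitochondrial lipid transfer partner that inhibits apoptosis, fell by 0.34. Of the DNA and RNA maintenance genes, RRM2B, a ribonucleotide reductase subunit, fell by 0.21 and POLH, the translesion DNA polymerase eta, by 0.26. The call of POLH was lost without heat-shocked control replicate 1 (adjusted p = 0.109) and with the DESeq2 Wald test (0.0789). ZMAT3, an RNA-binding zinc finger protein, was at 113 and 115 CPM before and 108 and 101 CPM after (adjusted p = 0.0722), and its fall was called under scaling by library size (adjusted p = 0.00514), and without knockdown replicate 1 (0.0254) or replicate 2 (0.0247).

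The metabolic genes ranged most widely. SESN1, a sestrin that restrains mTORC1, went from 24.0 and 25.3 CPM to 7.60 and 9.16 CPM, a 2.93-fold fall (adjusted p = 1.04e-10). FDXR, the mitochondrial ferredoxin reductase, fell by 0.36 and TP53I3, a quinone oxidoreductase, by 0.36 on the log2 scale. TIGAR, a phosphatase that lowers glycolytic flux, rose from 20.4 and 18.2 CPM to 28.9 and 30.8 CPM (log2 fold change 0.63 ± 0.09, adjusted p = 4.53e-06). TIGAR begins 15859 bp beyond CCND2, which lies upstream on the same strand and rose by 0.23 on the log2 scale with heat. Whether these rises are linked was not tested. ACER2, an alkaline ceramidase, was at 5.98 and 5.13 CPM before and 7.14 and 7.37 CPM after (adjusted p = 0.0603). ACER2 was called higher in the fit of only these 2 groups (adjusted p = 0.0311) and without knockdown replicate 1 (0.0496) or replicate 2 (0.0488).

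YTHDC1 knockdown in heat-shocked cells was accompanied by higher levels of most members. Of 29 tested, 20 were called higher and 4 lower, while over all genes 27.4% were called higher and 27.2% lower. Among genes of at least 5 CPM on average, 32.8% were called higher and 32.2% lower. The median log2 fold change was 0.37 for the members and 0.00 for all genes, written to 2 decimals. At a change of at least 2-fold, 6 members were higher and 0 lower, against 6.12% higher and 6.59% lower over all genes. The 4 that fell were TIGAR, BTG2, AEN and MDM4, and SESN1, TP53INP1, TNFRSF10B, ZMAT3 and ACER2 were not called. This comparison and the one with unheated controls share the heat-shocked control libraries, so a low value there would enter both with opposite signs; the comparison of knockdown with unheated cells further on does not use them.

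The 6 members that rose at least 2-fold came from several roles. PERP went from 7.45 and 7.30 CPM to 23.3 and 19.4 CPM, 2.90-fold higher (log2 fold change 1.54 ± 0.13, adjusted p = 4.77e-10). FDXR went from 89.0 and 98.4 CPM to 229 and 231 CPM, 2.45-fold higher (adjusted p = 1.09e-15). SUSD6, a transmembrane gene also known as DRAGO, went from 32.5 and 33.4 CPM to 81.7 and 75.2 CPM, 2.38-fold higher (adjusted p = 1.63e-13). In each of these the knockdown libraries lay far above both control groups. GDF15 went from 1.92 and 1.72 CPM to 3.93 and 4.65 CPM, 2.36-fold higher (adjusted p = 1.25e-04). TP53I3 went from 58.6 and 57.4 CPM to 127 and 123 CPM (2.15-fold, adjusted p = 5.44e-14). POLH went from 34.8 and 38.8 CPM to 73.7 and 84.0 CPM (2.14-fold, adjusted p = 6.87e-12). Of these 6, GDF15 was the one that remained below both unheated libraries. Beside PERP, 4 of 5 tested epithelial markers were also called higher in the knockdown, against 27.4% of all genes. Among them were EPCAM at a log2 fold change of 1.90, to a mean of 20.2 CPM, and KRT14 at 1.85, to 11.1 CPM. CLDN4, the most abundant of these markers, was not called (log2 fold change -0.16, edgeR adjusted p = 0.0568). Its mean was 64.4 CPM in heat-shocked controls and 57.6 CPM in the knockdown. The epithelial regulator GRHL2 had 1 read over all 6 libraries. Of the 9 bone and mesenchymal markers, 4 were called higher and 4 lower in the knockdown. CDH2, at a log2 fold change of 0.88, was among the higher, and VIM, at -0.47, among the lower. The part of a shift in epithelial genes in the rise of PERP was not tested.

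In the arrest group 4 of 5 rose and 1 fell, against 27.4% and 27.2% of all genes. CDKN1A was at 247 and 258 CPM in the knockdown, 1.30-fold above heat-shocked controls (log2 fold change 0.37 ± 0.05, adjusted p = 1.05e-06). PLK2, at 75.1 and 80.8 CPM, was 1.89-fold higher, PLK3, at 38.3 and 38.5 CPM, 1.46-fold higher, and GADD45A, at 113 and 112 CPM, 1.43-fold higher. BTG2 was the exception, at 11.4 and 11.5 CPM against 13.8 and 15.0 CPM (log2 fold change -0.34 ± 0.11, adjusted p = 0.0106). The call of BTG2 was lost without heat-shocked control replicate 2 (adjusted p = 0.0938) and with the DESeq2 Wald test (0.0782).

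In the feedback group 4 of 6 rose and 1 fell, against 27.4% and 27.2% of all genes. MDM2 was at 198 and 204 CPM, 1.78-fold above heat-shocked controls (log2 fold change 0.83 ± 0.05, adjusted p = 6.08e-13). MDM4 was at 71.9 and 73.1 CPM, slightly below the 81.8 and 83.0 CPM of heat-shocked controls (log2 fold change -0.18 ± 0.06, adjusted p = 0.00907). The inhibitors thus moved in opposite directions in this comparison too, although the call of MDM4 was lost with the DESeq2 Wald test (adjusted p = 0.0957). PPM1D rose by 0.49 on the log2 scale to 96.6 and 104 CPM, CCNG1 by 0.33 and FBXO22 by 0.33. TP53INP1 was at 39.2 and 46.7 CPM against 38.4 and 40.0 CPM (adjusted p = 0.162), and was called higher without knockdown replicate 1 (log2 fold change 0.25, adjusted p = 0.00745).

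In the death group 6 of 8 rose and 1 fell, against 27.4% and 27.2% of all genes. FAS was at 43.0 and 45.1 CPM, 1.57-fold above heat-shocked controls (adjusted p = 1.05e-07). FAS overlaps ACTA2 on the opposite strand, which rose by 2.51 on the log2 scale to a mean of 15.8 CPM, and the strand setting of the counting is not given, so reads of the pair cannot be assigned with certainty. PHLDA3 rose by 0.62 and PIDD1 by 0.56. EDA2R rose by 0.17 (adjusted p = 0.029), a call that was lost in 8 of 13 alternative settings, with an adjusted p of up to 0.23. AEN fell from 62.5 and 60.9 CPM to 50.4 and 48.9 CPM (log2 fold change -0.31 ± 0.06, adjusted p = 1.72e-04). TNFRSF10B was at 102 and 99.5 CPM against 98.3 and 93.0 CPM (log2 fold change 0.07 ± 0.05, adjusted p = 0.239), so the death receptors FAS and TNFRSF10B received different calls, though the difference between them was not tested.

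TRIAP1 rose by 0.19 (adjusted p = 0.0225), a call lost in 4 of 13 alternative settings with an adjusted p of up to 0.189, and RRM2B rose by 0.24. TIGAR had the largest fall of the members, from 28.9 and 30.8 CPM to 17.6 and 17.4 CPM (log2 fold change -0.77 ± 0.09, adjusted p = 2.28e-07). Its upstream neighbour CCND2 fell by 0.75 in the same libraries, and whether these falls are linked was not tested. SESN1 was at 8.78 and 8.82 CPM against 7.60 and 9.16 CPM (adjusted p = 0.71), ZMAT3 at 116 and 108 CPM against 108 and 101 CPM (adjusted p = 0.121), and ACER2 at 5.20 and 5.90 CPM against 7.14 and 7.37 CPM (adjusted p = 0.0531). ZMAT3 was called higher without knockdown replicate 2 (adjusted p = 0.0231).

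**Figure D3:**
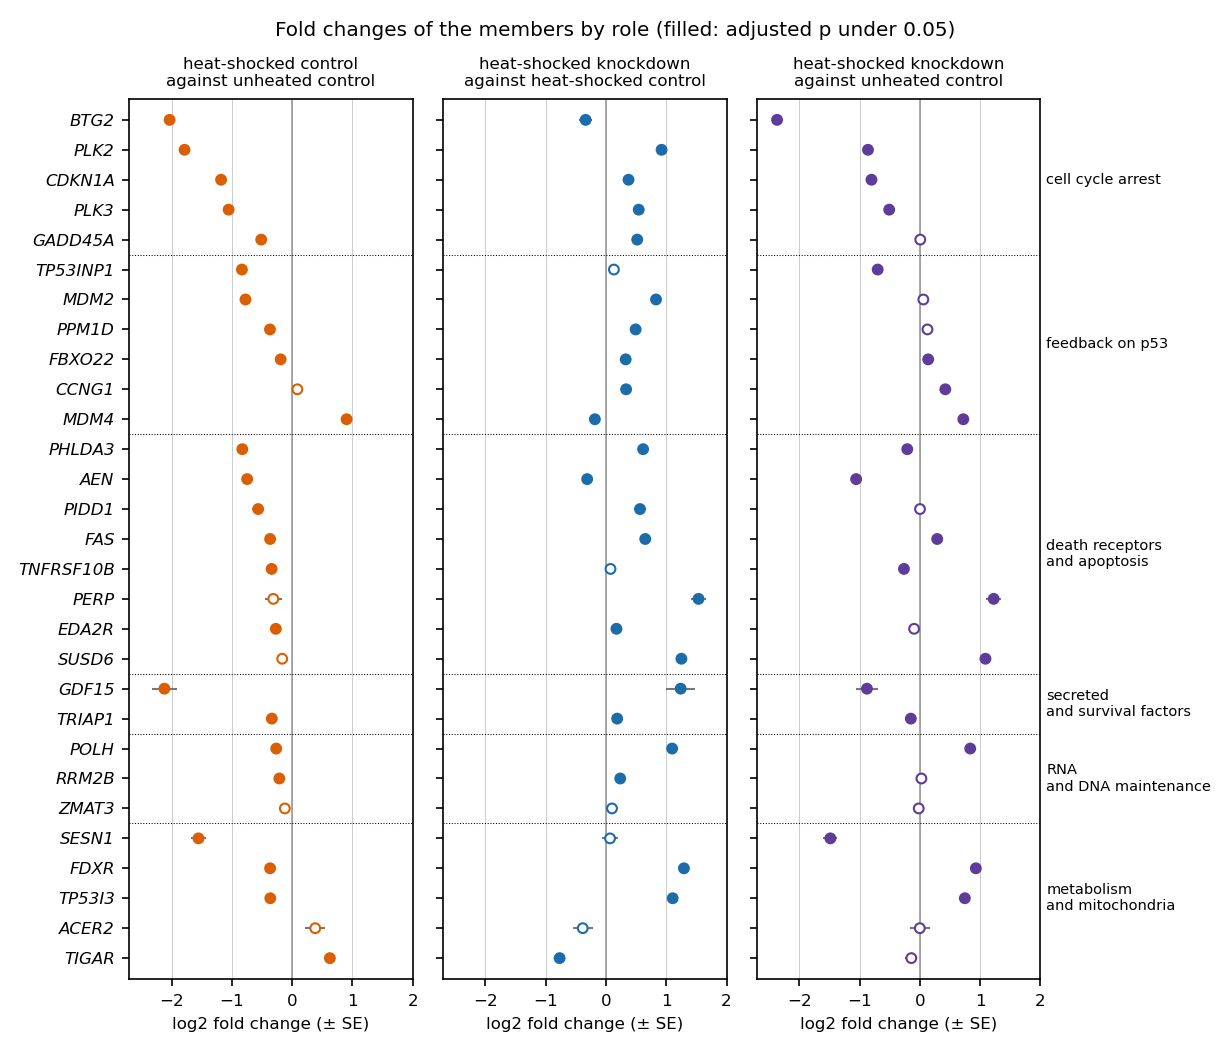
Log2 fold changes with their SE for the 29 tested members, grouped by role, in the 3 comparisons; filled points passed an adjusted p of 0.05 and open points did not. The left panel lies mostly below 0 apart from MDM4 and TIGAR, the middle panel mostly above it, and the right panel is split between 9 higher and 11 lower members.

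Setting the heat-shocked knockdown directly against unheated controls gave calls on both sides. Here 9 were called higher, 11 lower and 9 neither, or 31.0% higher and 37.9% lower, against 31.1% higher and 31.1% lower over all genes. Among genes of at least 5 CPM on average, 35.2% were called higher and 36.1% lower. At least 2-fold, 2 members were higher and 3 lower, against 9.45% and 8.99% over all genes. The members' shares were thus near the background.

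Above the unheated level stood PERP (2.34-fold), SUSD6 (2.12-fold), FDXR (1.90-fold), POLH (1.78-fold), TP53I3 (1.68-fold), MDM4 (1.65-fold), CCNG1 (1.34-fold), FAS (1.22-fold) and FBXO22 (1.10-fold). Among the 5 tested metabolic genes 2 were higher and 1 lower, and among the 5 arrest genes 0 were higher. Over all genes 31.1% were called in each direction. Whether such small role groups differ from all genes was not tested. Below the unheated level stood BTG2, with 19.3% left, SESN1 with 35.7%, AEN with 48.0%, GDF15 with 54.4%, PLK2 with 55.0%, CDKN1A with 57.3%, TP53INP1 with 61.5%, PLK3 with 70.2%, TNFRSF10B with 83.2%, PHLDA3 with 86.4% and TRIAP1 with 90.1%. That set holds 4 of the 5 arrest genes. GADD45A, the remaining arrest gene, was at the unheated level (113 and 111 against 113 and 112 CPM, log2 fold change 0.01 ± 0.05, adjusted p = 0.929).

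Of the members called neither way, MDM2 had a log2 fold change of 0.06 ± 0.05 (adjusted p = 0.29), RRM2B of 0.02 ± 0.04, PIDD1 of 0.00 ± 0.09, ZMAT3 of -0.02 ± 0.05, EDA2R of -0.10 ± 0.06, TIGAR of -0.14 ± 0.10 and ACER2 of 0.00 ± 0.17. PPM1D, at 0.12 ± 0.05, lay at the threshold (adjusted p = 0.0501). The calls of 3 members were lost under other settings. FBXO22 was lost without unheated replicate 1 (adjusted p = 0.176), unheated replicate 2 (0.074) or knockdown replicate 1 (0.0795), with library size alone (0.147) and with the DESeq2 Wald test (0.106). PHLDA3 was lost without unheated replicate 1 (0.127) or knockdown replicate 1 (0.11) and with DESeq2 (0.115). TRIAP1 was lost without unheated replicate 2 (0.283) or knockdown replicate 1 (0.131) and with DESeq2 (0.273). PPM1D was called higher without knockdown replicate 1 (0.0102), and EDA2R lower with library size alone (0.0385).

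Of 31 listed genes that act on p53, 29 were tested. Beside the shares of all genes below, those of genes of at least 5 CPM, given above, were larger in each direction and comparison. With heat 12 fell (41.4%, against 23.3% of all genes) and 6 rose (20.7%, against 20.6%), with a median log2 fold change of -0.04. In the knockdown 12 rose (41.4%, against 27.4% of all genes) and 6 fell (20.7%, against 27.2%), with a median of 0.12. Against unheated controls 11 were higher (37.9%) and 8 lower (27.6%), where all genes had 31.1% in each direction. Of the 29, 0 were called with a change of 2-fold or more in any of these comparisons. With heat the regulators that fell included TP73, a p53 relative, at -0.78, TRIM24, a ubiquitin ligase for p53, at -0.69 and PML, the nuclear body scaffold, at -0.62. Those that rose included the acetyltransferase CREBBP at 0.46, TP53BP2 at 0.31 and the damage kinase ATM at 0.20. In the knockdown TRIM24 rose by 0.58, the deacetylase SIRT1 by 0.41 and PPP1R13L, the inhibitor iASPP, by 0.41, while USP10, a deubiquitinase of p53, fell by 0.51 and PML by 0.23. Against unheated controls PML was at -0.85 and TP73 at -0.73, with CREBBP at 0.64, SIRT1 at 0.51 and PPP1R13L at 0.46. CDKN2A, whose ARF product inhibits MDM2, had no more than 1 read in any library.

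A wider list of 81 other p53 targets, of which 77 were tested, moved in both directions. Here too the larger shares of genes of at least 5 CPM, given above, apply beside those of all genes. With heat 33 fell (42.9%, against 23.3% of all genes), 12 rose (15.6%, against 20.6%) and 32 were not called, with a median log2 fold change of -0.16. The pro-apoptotic BBC3 was at -2.06 and RAP2B, a small GTPase, at -1.91, whereas IER5 rose 3.38-fold, the sodium channel subunit SCN3B 2.29-fold and NOTCH1 2.05-fold. SCN3B had only 17 reads in each unheated library and 27 and 40 reads in the heat-shocked controls. Its mean passed 5 CPM only through the knockdown, at 21.1 CPM, so each of its fold changes starts from few reads. In the knockdown 36 rose (46.8%, against 27.4% of all genes) and 17 fell (22.1%, against 27.2%), with a median of 0.19. SCN3B rose 8.49-fold and ATF3, a stress transcription factor, 3.48-fold, while DDIT4, an inhibitor of mTORC1, fell by 1.46, PANK1, a pantothenate kinase, by 1.27 and ASCC3, a helicase, by 1.16. Against unheated controls 32 were higher (41.6%) and 31 lower (40.3%), against 31.1% of all genes in each direction, with SCN3B at 4.28, IER5 at 2.40 and ATF3 at 1.73 above, and TRIM22 at -1.59, RAP2B at -1.39 and FAM210B at -1.32 below. The plot of these lists beside all genes shows that the members' median lay further from 0 than that of the wider list with heat and in the knockdown.

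**Figure D4:**
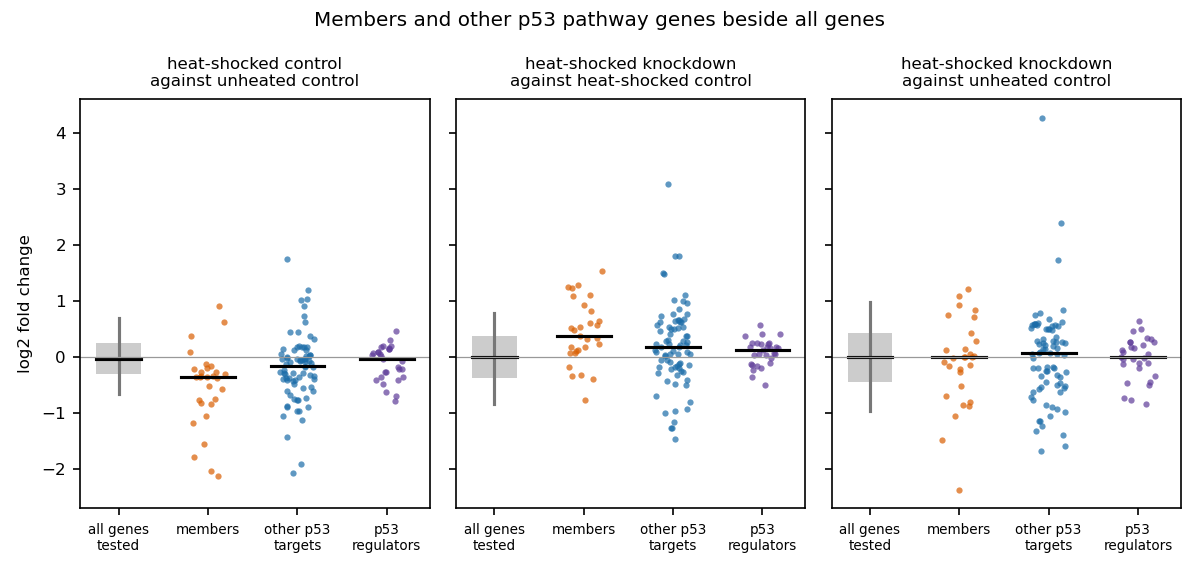
Log2 fold change of each tested gene (points) for the members, the other p53 targets and the p53 regulators in the 3 comparisons, with black lines at the medians; for all genes tested the grey box spans the middle 50% and the line the middle 80%. The members' median is -0.36 with heat and 0.37 in the knockdown, the wider list's -0.16 and 0.19.

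Other members overlap a neighbour on the opposite strand that was itself expressed, which limits how surely their reads are assigned. POLH overlaps GTPBP2, which fell by 0.98 with heat and rose by 0.59 in the knockdown. TNFRSF10B overlaps RHOBTB2, which fell by 0.41 and by 0.67 in the same comparisons. TP53INP1 overlaps NDUFAF6 and CCNG1 overlaps NUDCD2, which rose by 0.62 and 0.57 in the knockdown.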

How the data were processed

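Per the labels' protocols, TRIzol extracts of U2OS cells went into VAHTS Universal V8 libraries read on a DNBSEQ-T7. The authors deposited raw read counts of each gene, as whole numbers. The tools named, per the submitters' processing notes, include HISAT2 2.2.1 and featureCounts 2.0.2 on GRCh38; neither the annotation nor the strand setting is stated. The deposited gene length, another value of the file headers, was used only for levels per kilobase, computed from the counts. The 4 methylated RNA immunoprecipitation samples were not analysed here, so no value measures m6A.

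Counts of all 6 libraries entered 1 edgeR 4.0.16 fit (R 4.3.3; quasi-likelihood F test, robust, TMM scaling, filterByExpr with a minimum count of 10), with 3 residual degrees of freedom and 17290 genes tested across the genome. Adjusted p is Benjamini-Hochberg over those genes, with 0.05 as the threshold, and "called", "rose" and "fell" refer to it. CPM use TMM-scaled library sizes, and ± is the SE of a log2 fold change with n = 2 per group. p-values measure the spread between these libraries, which may be technical. The test was checked on simulated data. Named genes were all 30 members and, from the other pathway lists, the 3 largest called changes per direction and comparison at a mean of at least 5 CPM; a few genes that the rule names are not reported here. Members and lists were chosen with earlier results of these data known. Alternatives were library size alone, DESeq2 1.42.0, limma 3.58.1 voom, no filter, no robust estimation, fits of 2 groups, a replicate block and leaving out each library.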

Additional observations from a re-analysis of the deposited data

How the results depend on the processing

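Over the 13 alternatives, the number of members called lower with heat was 21 to 25 (22 in the analysis reported), and the number called higher in the knockdown 18 to 20 (20). With the DESeq2 Wald test 2 rather than 4 members were called lower in the knockdown and 4777 rather than 7592 of all genes were called with heat. In the fit of only the 2 groups 4 rather than 2 members were called higher with heat. With the replicate block, 10 rather than 9 members were called higher in the knockdown than in unheated controls, PPM1D being the addition (adjusted p = 0.049), and the other 5 counts of members were the same. Libraries with the same number shared no deviation (correlations over genes between -0.02 and 0.01), so the numbers were not taken as pairs. Signs turned only for values that were not called: leaving out 1 library gave CCNG1 with heat -0.0036 to 0.17, SESN1 in the knockdown -0.060 to 0.20, and, in the knockdown against unheated controls, RRM2B -0.011 to 0.054, GADD45A -0.016 to 0.011, ZMAT3 -0.076 to 0.028, PIDD1 -0.063 to 0.056 and ACER2 -0.12 to 0.11. Of these, CCNG1 was called at its upper end. In that last comparison library size alone gave RRM2B -0.031, GADD45A -0.050 and PIDD1 -0.054, no filter gave GADD45A -0.0072 and PIDD1 -0.012, only the 2 groups gave PIDD1 -0.00095, and ACER2 was 0.00069 with DESeq2 and 0.00018 with limma voom. The cause of these changes was not tested. Depth limits GDF15, ACER2 and PERP most, at means of 4.67, 6.12 and 12.6 CPM.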
